A study of Mus musculus with 7 samples.

Results

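Fos binding was examined at 10 genes for regulators of G protein signalling (RGS proteins), namely Rgs2, Rgs4, Rgs6, Rgs7, Rgs8, Rgs9, Rgs10, Rgs14, Rgs16 and Rgs20. The genes were named by family, and a peak was assigned to a gene when it lay within 10 kb of the gene's GRCm38 span. These are 10 of the 21887 protein-coding genes of the RefSeq table, and 43 of the 26862 regions that were called in at least 2 kainic acid libraries lay near them. The data came from chromatin immunoprecipitation and sequencing (ChIP-seq) of hippocampus with an antibody against Fos, the inducible subunit of the AP-1 transcription factor. All mice were wild-type C57BL/6J animals of 2 months. The 3 kainic acid libraries came from mice given kainic acid, a glutamate receptor agonist that provokes seizures, as 2 injections of 10 mg/kg into the peritoneum 30 min apart. These mice reached seizure level 4 and were killed 1 h after the first injection. The 3 saline libraries came from mice injected with saline in its place. The labels also name 1 input library, which came without a peak list and was not used here. They do not say how many animals a library holds, so the tests measure the spread between libraries only.

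RGS proteins shorten G protein signals. Through their RGS domain they speed up GTP hydrolysis by the alpha subunits of heterotrimeric G proteins, mostly of the Gi/o and Gq classes, and so turn off signalling below metabotropic glutamate, GABA-B, muscarinic, adenosine and opioid receptors. The small R4 proteins consist of little more than this domain, and R7 proteins work as obligate dimers with the beta subunit Gnb5. Some R12 and RZ proteins carry other domains or a preference for Gz. Several RGS transcripts are known to respond to neuronal activity, with Rgs2 described as an immediate early gene.

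The libraries stood far apart in length before any gene was considered. The kainic acid lists held 15009, 63197 and 29650 peaks in replicates 1, 2 and 3, and the saline lists held 7, 3277 and 2, so a saline library other than replicate 2 could hardly have contributed a peak near any gene. Peaks near the RGS genes made up 0.14%, 0.128% and 0.152% of the 3 kainic acid lists. The lists come without read totals. The reads over each summit, recovered from the deposited values, ran from 14 to 47 in kainic acid replicate 1, from 10 to 62 in replicate 2 and from 15 to 62 in replicate 3 near these genes, over local backgrounds of 2.71 to 13.3 reads. Whole tissue was used, so binding in few cells and weak binding in many cells cannot be told apart, and the lists hold no expression values against which markers of hippocampal cells could be checked.

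The promoters over which kainic acid peaks lay are shown first, since they are the stretches in which peak and gene start coincide. Of the 10 genes, 8 had start sites in the RefSeq promoter table of GRCm38.p6 (all but Rgs14 and Rgs20), with 10 windows among them. Peaks overlapped some or all of the 250 bases before the start in 3 genes, and these stretches are printed here. They are written 5′ to 3′ on the gene's strand, in lower case, with a match to the Egr motif in capitals. All are on the minus strand, at chr1:144004150-144004399 for Rgs2, chr1:169747643-169747892 for Rgs4 and chr1:175492546-175492795 for Rgs7.
Rgs2: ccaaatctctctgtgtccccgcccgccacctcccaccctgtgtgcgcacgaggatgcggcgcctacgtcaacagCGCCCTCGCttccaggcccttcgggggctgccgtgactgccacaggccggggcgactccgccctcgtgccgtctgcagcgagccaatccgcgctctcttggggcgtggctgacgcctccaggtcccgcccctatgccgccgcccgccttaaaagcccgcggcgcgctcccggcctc
Rgs4: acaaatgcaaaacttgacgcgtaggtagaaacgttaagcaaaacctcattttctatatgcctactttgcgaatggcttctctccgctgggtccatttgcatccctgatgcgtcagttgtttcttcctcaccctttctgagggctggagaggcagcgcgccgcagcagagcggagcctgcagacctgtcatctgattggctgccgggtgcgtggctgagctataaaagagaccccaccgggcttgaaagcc
Rgs7: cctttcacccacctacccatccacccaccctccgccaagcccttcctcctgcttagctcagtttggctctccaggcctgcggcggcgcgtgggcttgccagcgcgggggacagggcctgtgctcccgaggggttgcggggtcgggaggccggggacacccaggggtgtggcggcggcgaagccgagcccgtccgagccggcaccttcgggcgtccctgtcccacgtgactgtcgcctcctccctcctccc

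The Rgs2 stretch was overlapped by a peak of kainic acid replicate 2 and a peak of saline replicate 2, and the stretches of Rgs4 and Rgs7 by peaks of kainic acid replicates 2 and 3. At Rgs2 the kainic acid peak ended within the stretch, at 144004229, and only the saline summit lay in it. No AP-1 motif (TGANTCA, both strands) was in any of the 10 windows, beside 6.75% of all 32851 promoter windows of this length. The CRE motif (TGACGTCA) and the CArG box were also in none of the 10, and 1.55% and 1.47% of all windows hold them. The Egr motif (GCGNGGGCG), which does not overlap the others, was in the Rgs2 window only, with its first base 176 bases before the start, and in 4.70% of all windows.

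Of the 10 genes, 8 had at least 1 region called in 2 or more kainic acid libraries, referred to as a kainic acid region from here on, and 6 had a region called in all 3. Over all protein-coding genes these shares were 40.0% and 23.9%. Long genes offer more room, and the share was 26.3% for genes under 20 kb, 48.1% for genes of 20 to 100 kb and 81.6% for longer ones. Among the RGS genes, 3 of 4, 2 of 3 and 3 of 3 in these classes had a region. The exceptions were Rgs16 and Rgs10. Rgs2, Rgs6, Rgs7, Rgs8, Rgs9 and Rgs20 had more peaks in every kainic acid library than in any saline library, and 20.7% of all protein-coding genes did so. By length that background was 9.98%, 24.0% and 62.4%, and the RGS genes stood at 1 of 4, 2 of 3 and 3 of 3.

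**Figure D1:**
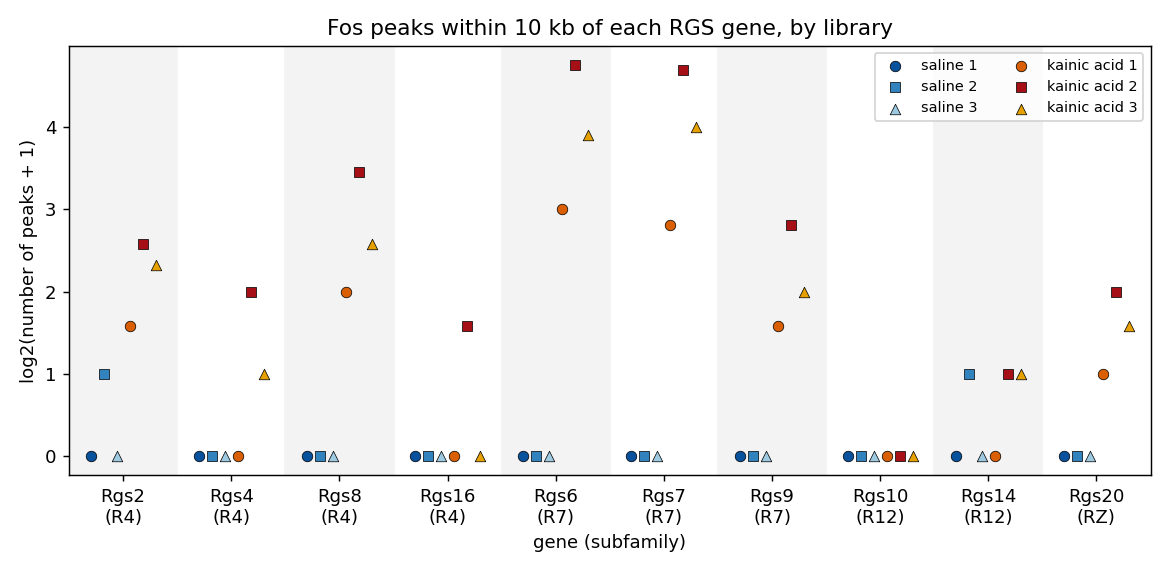
Number of Fos peaks within 10 kb of each gene in each library, as log2(number + 1), with genes ordered by subfamily on the horizontal axis. Each marker is 1 library. Replicate 2 is the highest kainic acid library at 8 of the 10 genes, and saline markers leave 0 only at Rgs2 and Rgs14.

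No gene's difference passed a test, and none could have done so. With 3 libraries against 3, the two-sided exact permutation test cannot go below p = 0.1. The 6 genes named above reached that value, which 20.7% of all protein-coding genes also did, and the Benjamini-Hochberg adjusted p over 21887 genes was 0.484 for each of them by the exact permutation test. No protein-coding gene passed 0.05, either adjusted (0 of 21887, 0.00%) or unadjusted (0 of 21887).

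Among the R4 genes, Rgs2 encodes a small regulator with a preference for Gq. It had 2, 5 and 4 peaks in kainic acid replicates 1, 2 and 3, and 0, 1 and 0 in the saline replicates. The groups did not overlap. After kainic acid the mean of log2(peaks + 1) was 2.16 ± 0.52 (SD, n = 3), against 0.33 ± 0.58 (SD, n = 3) after saline, or 1.83 higher (exact permutation p = 0.1). In a gene of 4.81 kb these peaks formed 3 kainic acid regions, 12.1 per 100 kb of window, a density above that of 99.3% of protein-coding genes. Of the 3 regions, 2 lay side by side at the start, one ending at 144004415 and the next beginning at 144004469. The end at 144004415 was that of a saline peak. The kainic acid peaks of that region ended at 144004229 in replicate 2 and 144004006 in replicate 3. The density counts the 2 regions separately. Rgs2 had 2 regions without kainic acid replicate 2 or without replicate 3, and 1 with the kainic acid lists reduced to equal numbers of peaks, where its groups overlapped.

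Of the Rgs2 regions in all 3 lists, that of best mean rank, chr1:144004469-144005969, lay just upstream of the promoter printed above. Its summits stood 805, 781 and 879 bp before the start site in kainic acid replicates 1, 2 and 3. The deposited fold of peak over local background was 3.88, 7.46 and 3.5, from 30, 56 and 49 reads over backgrounds of 7.0, 6.64 and 13.3. Ranked by fold within each list, where 0 is the strongest peak and 100 the weakest, it stood at percentiles 69.0, 13.2 and 71.0. By fold it was thus strong in replicate 2 and in the weaker part of the other lists. Ranked by −log10 q, its mean percentile was 23.8, in place of 51.1 by fold.

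A second region in all 3 lists, chr1:143999813-144000415, lay near the far end of Rgs2, with summits 4131, 3929 and 4100 bp downstream of the start. Its folds of 4.22, 3.70 and 3.65 were close to each other and of low rank in every list (percentiles 56.3, 73.6 and 63.8). The third, chr1:144003379-144004415, was called in kainic acid replicates 2 and 3 (folds 4.85 and 3.78). Its replicate 2 peak reached over the start and ended at 144004229, whereas its replicate 3 peak ended inside the gene, at 144004006. This region was the only one of the 43 to hold a saline peak. That peak, chr1:144004157-144004415 of saline replicate 2, had a fold of 4.20 from 24 reads and its summit 154 bp before the start, whereas the kainic acid summits lay 471 and 332 bp after it. When peaks were joined only by summits within 200 bp of each other, none of the regions held a saline peak.

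Rgs4, an abundant R4 regulator of Gi/o and Gq signals in forebrain, had 0, 3 and 1 peaks in the kainic acid replicates and none in any saline library. Replicate 1 was at the saline level, so the groups overlapped (difference in log2(peaks + 1) 1.00, exact permutation p = 0.4). Its single kainic acid region, chr1:169747622-169748252, lay over the printed promoter. The fold there was 4.68 in replicate 2 and 3.61 in replicate 3, with summits 167 and 401 bp before the start. The other 2 peaks, both of replicate 2, had folds of 3.47 and 2.64 and ranked at percentiles 82.6 and 98.2, near the bottom of that list. Rgs4 had 0 regions at a −log10 q of at least 10 and with the kainic acid lists reduced to equal numbers of peaks. It also had 0 when peaks were joined only by summits within 200 bp.

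Rgs8 is an R4 gene best known from cerebellar Purkinje cells. It had 3, 10 and 5 peaks in kainic acid replicates 1, 2 and 3 and none in the saline libraries, so the groups lay apart. The mean of log2(peaks + 1) was 2.68 ± 0.73 (SD, n = 3) against 0 in all 3 saline libraries (exact permutation p = 0.1). The peaks formed 5 kainic acid regions in a gene of 44.7 kb, 7.73 per 100 kb, above 96.7% of protein-coding genes, and all 5 lay inside the gene. Rgs8 had 3 regions without kainic acid replicate 2, without replicate 3, or with equal numbers of peaks.

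At Rgs8 the strongest of these, chr1:153673714-153674632, had folds of 6.72, 11.9 and 7.35 from 27, 43 and 36 reads. It ranked at percentiles 10.2, 2.96 and 6.54, high in every list, with a mean of 6.58 ± 3.64 (SD, n = 3). It lay 8.42 kb downstream of the nearest of the gene's start sites. A region close to the first start site, chr1:153653178-153654211, had its summits 0.81 kb after that start and folds of 4.80, 13.2 and 5.36. The fold of 13.2 was the highest deposited at any RGS peak, at percentile 2.03 of replicate 2, while replicates 1 and 3 placed the region at 36.8 and 20.8.

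Rgs16, an R4 gene known for its circadian transcription, lies 42.7 kb from Rgs8 on the same chromosome. It had 0, 2 and 0 kainic acid peaks and no saline peak, and thus no region supported by 2 libraries (exact permutation p = 1). Both peaks were of replicate 2 and lay outside the gene.

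Rgs6 and Rgs7 held 29 of the 43 kainic acid regions, 67.4%, and their windows made up 66.4% of the summed window length of the 10 genes. Both belong to the R7 group, whose proteins pair with Gnb5 and speed up the shut-off of G protein-gated potassium channels. Rgs6, 546 kb long, had 7, 26 and 14 peaks in kainic acid replicates 1, 2 and 3. Rgs7, 434 kb long, had 6, 25 and 15. Neither had a peak in any saline library. Both genes thus had about as many peaks as each other in every library, with replicate 2 highest and replicate 1 lowest. The mean of log2(peaks + 1) was 3.89 ± 0.88 (SD, n = 3) for Rgs6 and 3.84 ± 0.96 (SD, n = 3) for Rgs7, against 0 in every saline library (exact permutation p = 0.1 for each).

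Per 100 kb of window, Rgs6 had 2.48 kainic acid regions and Rgs7 3.31. The median of protein-coding genes over 100 kb was 1.21, the 75th percentile 2.51 and the 90th percentile 4.41, so Rgs6 stood just under the upper quartile of genes of its length and Rgs7 above it. Rgs2 and Rgs8 were the only members above the 90th percentile of their class (4.52 under 20 kb and 4.43 at 20 to 100 kb).

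**Figure D2:**
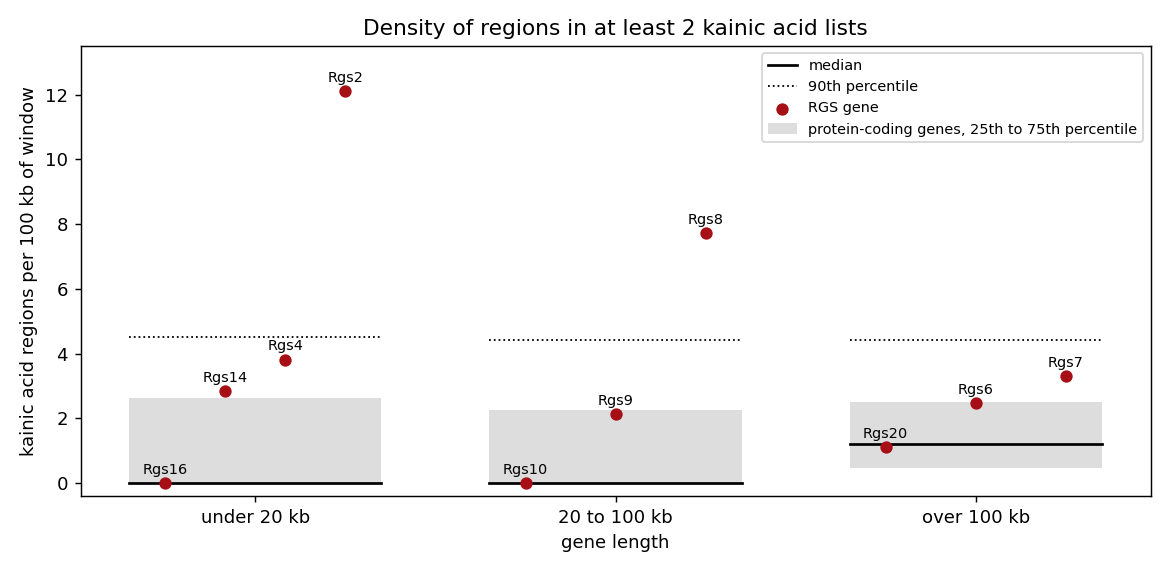
Kainic acid regions per 100 kb of window for each RGS gene (red points, labelled) beside all protein-coding genes of the same length class. Grey bars span the 25th to 75th percentile, solid lines are medians and dotted lines 90th percentiles; Rgs2 at 12.1 and Rgs8 at 7.73 lie above the dotted lines.

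Rgs6 had 14 kainic acid regions, 6 of them in all 3 libraries, with 11 inside the gene and 3 beyond its far end. None lay within 1 kb of its start site, and the nearest was 83.1 kb downstream. A group of 5 lay between 185 and 206 kb downstream of the start. The region of best rank, chr12:83125001-83125912, lay 508 kb downstream. Its folds were 6.33, 12.3 and 8.82 from 33, 52 and 53 reads, at percentiles 13.0, 2.62 and 3.13. This was the best mean rank of all 43 regions, 6.24 ± 5.84 (SD, n = 3).

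A comparable Rgs6 region, chr12:83021242-83022148, had folds of 6.34, 10.7 and 7.28 and ranked at 12.9, 4.3 and 6.93. Its 3 summits fell within 46 bp, the closest agreement among the regions in all 3 lists. Past the far end of the gene, chr12:83167748-83168869 ranked at 22.9, 7.90 and 10.7. Other Rgs6 regions were ranked very differently by the libraries. The region chr12:82882206-82883515 stood at percentiles 79.9, 5.79 and 11.5. It joined 2 peaks of replicate 1 and 2 of replicate 2 with 1 long peak of replicate 3, and the summits of its strongest peaks were up to 982 bp apart.

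Rgs7 is known from hippocampal neurons, where it acts on GABA-B receptor signalling. All 15 of its kainic acid regions had their median summit inside the gene, and 3 were in all 3 libraries. At the start site, 2 regions were called in replicates 2 and 3, with median summits 0.113 and 0.623 kb downstream of the start. The nearer, chr1:175492087-175493137, had folds of 6.80 and 4.63 in its strongest peaks. The replicate 2 peak over the promoter printed above was another one of that region, with a fold of 6.01, and the replicate 3 peak there was that of 4.63. The strongest region in all 3 lists, chr1:175462150-175463037, lay 30.0 kb downstream of the start, with folds of 6.00, 8.07 and 5.08. Its 47, 54 and 62 reads were among the deepest pileups near any RGS gene, and its percentiles of 15.7, 10.7 and 24.5 were alike in the 3 lists. The others in all 3 lists were chr1:175427753-175428724 (folds 4.55, 8.44 and 4.78) and chr1:175202669-175203390 (3.84, 8.93 and 5.70).

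**Figure D3:**
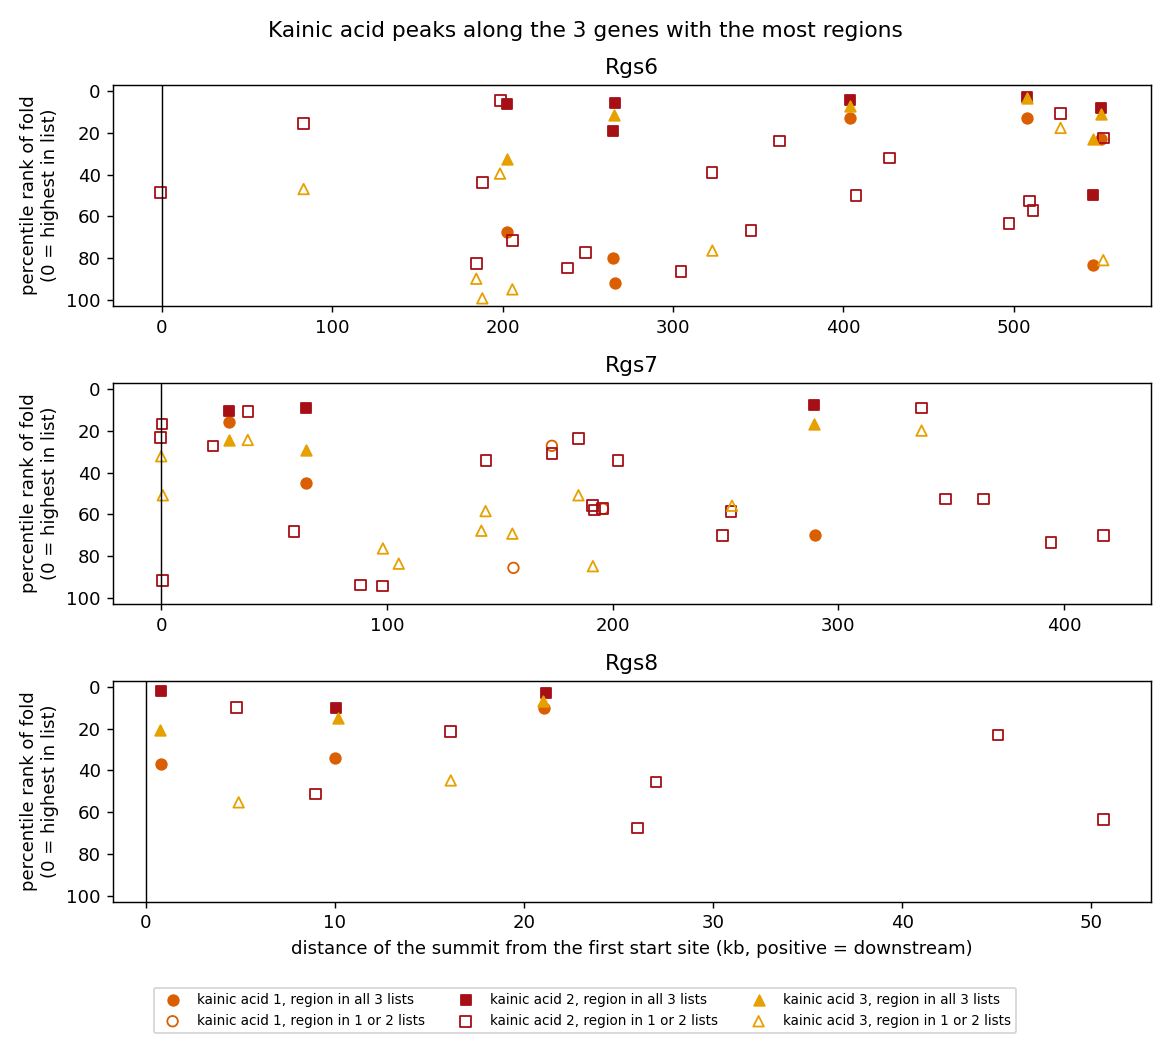
Kainic acid peaks along Rgs6, Rgs7 and Rgs8, with the distance of each summit from the gene's first start site (kb) against its percentile rank of fold, 0 being the highest. Marker shape and colour give the library, and filled markers belong to regions called in all 3 lists. Filled markers at Rgs6 lie 202 kb and more from the start, whereas Rgs8 has a filled group 0.81 kb from its start.

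Rgs9 encodes the R7 protein of photoreceptors and striatum. It had 2, 6 and 3 kainic acid peaks in replicates 1, 2 and 3 and no saline peak. The groups lay apart, with a mean of log2(peaks + 1) of 2.13 ± 0.62 (SD, n = 3) against 0 (exact permutation p = 0.1). Both of its kainic acid regions were in all 3 lists and inside the gene. The one at chr11:109277757-109278517 had folds of 3.04, 8.31 and 4.35, and that at chr11:109258623-109259968 had 3.34, 8.37 and 5.23. In replicate 1 both ranked near the bottom (percentiles 94.8 and 89.4), and in replicate 2 near the top (9.76 and 9.39). At the second site the peaks of replicates 1 and 3 did not touch each other and were joined by the wider peak of replicate 2, with summits up to 680 bp apart.

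Of the R12 genes, Rgs10, known for restraining inflammatory signalling in microglia, had no peak in any of the 6 libraries. The nearest kainic acid region was 40.0 kb away, in all 3 lists, at Tial1. Rgs14, a marker of CA2 pyramidal neurons that limits their plasticity, had 0, 1 and 1 kainic acid peaks and 0, 1 and 0 saline peaks. The groups overlapped (exact permutation p = 1). Its kainic acid region, chr13:55381741-55382256, had folds of 6.89 and 4.18 in replicates 2 and 3 and lay inside the gene, 2719 bp from one of its ends. The saline peak, chr13:55370942-55371334 of replicate 2, lay elsewhere in the gene, 1410 bp from the nearest end, with a fold of 4.62 from 14 reads. No kainic acid peak overlapped it.

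Rgs20, the RZ member and a regulator selective for Gz, had 1, 3 and 2 kainic acid peaks and none with saline. The groups lay apart by 1 peak in replicate 1 (mean log2(peaks + 1) 1.53 ± 0.50, SD, n = 3, against 0, exact permutation p = 0.1). The region chr1:5014947-5016200, inside the gene, had folds of 6.04, 10.5 and 6.69 from 42, 62 and 40 reads. It ranked at 15.5, 4.51 and 9.55, among the 4 regions near RGS genes with a mean percentile under 10. A second region, chr1:5070226-5070741, lay at one end of the gene, called in replicates 2 and 3 with folds of 6.85 and 3.26.

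**Figure D4:**
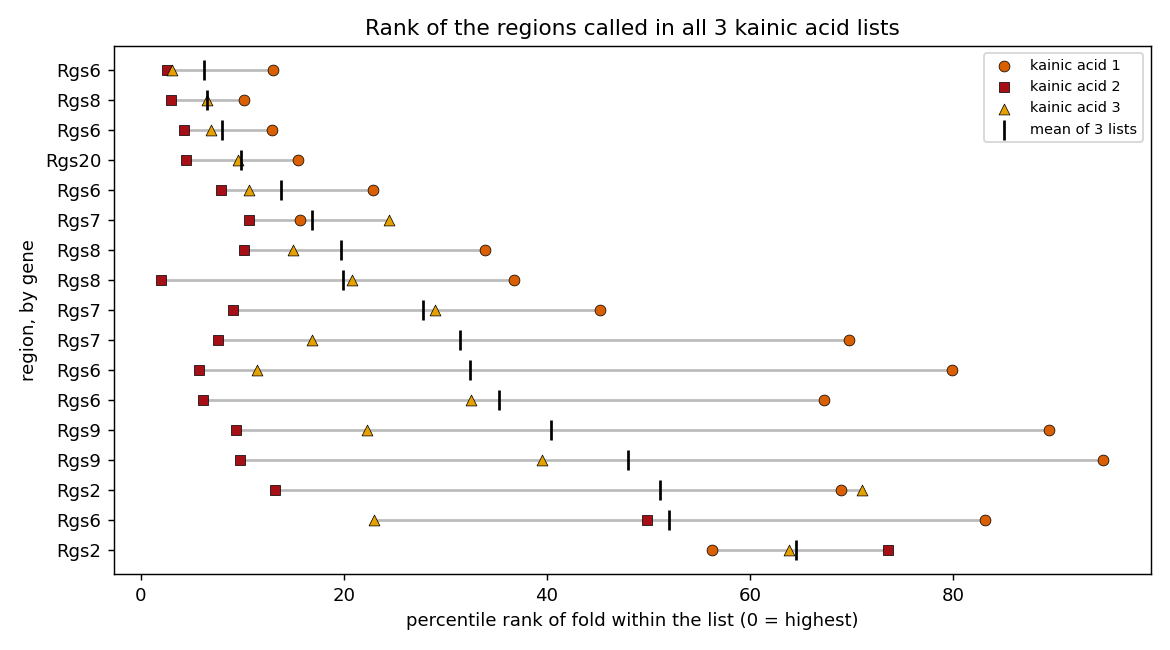
Percentile rank of fold in each kainic acid list for the 17 regions called in all 3 lists, 1 row per region, labelled by gene and ordered by mean. Markers are libraries, black ticks are means and grey lines the range; replicate 2 gave the lowest percentile in 15 of the 17 and replicate 1 the highest in 14.

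Across the 43 kainic acid regions, 17 were in all 3 lists, 39.5%, beside 44.4% of all kainic acid regions. Of the 26 in exactly 2 lists, 23 lacked replicate 1, 1 lacked replicate 2 and 2 lacked replicate 3. A further 41 regions were called in 1 kainic acid library, 37 of them in replicate 2, 4 in replicate 3 and 0 in replicate 1. The median of the mean percentile was 35.3 near the RGS genes and 42.2 over all kainic acid regions. For regions in all 3 lists it was 27.8 and 30.3. The RGS regions in all 3 lists ranged from 6.24 to 64.5, and none of the 43 was within the top 1% of its lists on average. The median distance between the summits of the 3 libraries was 139 bp, and over all regions in all 3 lists 122 bp. A saline peak fell in 1 of the 43 regions, 2.33%, beside 2.01% of all kainic acid regions. Of the 10 genes, 2 had a saline peak within 10 kb, beside 17.0% of protein-coding genes.

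The median summit was inside the RGS gene for 37 of the 43 regions (86%), and the genes themselves made up 87% of the summed window length. In the genes with a known start, 6 of 40 regions (15%) had it within 1 kb of a start site of that gene, at Rgs2 (2), Rgs7 (2), Rgs4 (1) and Rgs8 (1), and 29 were over 10 kb away. Over all kainic acid regions 7.94% were within 1 kb of a start site of any gene. That share also takes in regions more than 10 kb from any gene, so it is no like background for the 15%. The 2 regions at Rgs2 lay side by side, as did the 2 at Rgs7. The gene table gives no exons, so a position inside a gene is not assigned to an exon or an intron. The window's edge touched few of these values. The farthest region counted was 7.59 kb beyond Rgs6, and the nearest not counted were 13.8 kb from Rgs2 and 15.0 kb from Rgs4.

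Number and support depended on single libraries. Without kainic acid replicate 2 there were 17 kainic acid regions near 6 genes, and without replicate 3 there were 20 near 6, since Rgs4 and Rgs14 rest on those 2 lists alone. Rgs7 then had 4 and 5 regions and Rgs6 6 and 7. Rgs9 had 1 in place of 2 without replicate 2, and Rgs20 had 1 in place of 2 without either. Without replicate 1 there were 40 near 8 genes. With the kainic acid lists reduced to equal numbers of peaks, 23 regions near 7 genes were left. At a −log10 q of at least 10 there were 16 near 6.

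Other genes of the pathway were counted in the same way. Of 11 other RGS genes, 8 (72.7%) had a kainic acid region, beside 40.0% of all protein-coding genes and 80% of the 10 described above. Rgs17 had 4 regions, Rgs22 had 3 and Rgs12 had 2, and Rgs1, Rgs18 and Rgs21 had none. Of 5 partners of RGS proteins, 3 had one. They were Rgs7bp, which anchors R7 dimers to membranes, with 10 regions, the orphan receptor Gpr158 with 6, and Gnb5, the obligate R7 partner, with 4. Per 100 kb of window these were 7.75, 1.24 and 6.71, so Gpr158, a gene of 463 kb, was the least dense. Rgs9bp and Gpr179 had none. Of the 4 G protein-gated potassium channel genes, 3 had regions, 17 at Kcnj6, 12 at Kcnj3 and 1 at Kcnj9.

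Among the targets of RGS proteins, 7 of 16 G protein alpha subunit genes (43.8%) had a kainic acid region, a share near the background. Gnaq had 9, Gnao1 had 6 and Gna12 had 3. Of 17 beta and gamma subunit genes 6 (35.3%) had one, led by Gng7 with 11, Gng2 with 8 and Gnb1 with 4. Of 19 Gi/o-coupled receptor genes 12 (63.2%) had one, with 14 at Gabbr2, 5 at Adora1 and 4 at Gabbr1. Per 100 kb of window these were 4.01, 8.89 and 8.27. Of 12 Gq-coupled receptor genes 5 (41.7%) had one, with 5 at Hrh1, 4 at Adra1a and 3 at Chrm1. These lists differ in gene length, as do the genes named, and the shares of the lists were not tested against each other.

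Rgs7 had the most regions as counted here, 15 against 14 at Rgs6, but fewer than Rgs6 when any kainic acid library was left out. Its nearest match in peak numbers was Pde4dip, which had the same number of peaks in each of the 6 libraries. Galnt18 and Arhgef3 followed, each with a summed difference of 2 peaks over the 6 libraries. This likeness is one of peak numbers only.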

How the data were processed

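Files of 6 libraries held 1 list of Fos ChIP-seq peaks each. Per the submitters' processing notes the tools were Trim Galore 0.6.4, Bowtie2 2.3.4.3, MACS2 and deepTools 3.5.0, with build mm10; peak names carry a mapping quality of 30. Control, cutoff and fragment length are not given in the sources used here. In each deposited list, fold is the linear ratio of a summit to its local background in that library, beside a deposited −log10 p, −log10 q and a score of 10 times −log10 q, rounded down. None is scaled between libraries, so fold was only ranked within a list (percentile 0 highest).

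Reads over a summit (k) and background (b) were solved from fold = (k + 1)/(b + 1) and the Poisson p; 99.99% of 111142 peaks were solved within 0.001. This rests on an assumed calling model.

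Peaks overlapping by 1 bp were merged over all 6 lists. Regions within 10 kb of a RefSeq GRCm38.p6 gene were counted; mm10 and GRCm38 share coordinates. The test was a two-sided exact permutation of log2(peaks + 1) over 20 assignments of the 6 libraries, for every protein-coding gene, with Benjamini-Hochberg adjustment. Python 3.11.15, pandas 2.3.3 and scipy 1.17.1 were used; merging, counting, the test and the solver were tested on simulated data. All members were named, each with its region of best mean rank among those in most lists, except Rgs16, whose peaks' placing is not reported here; of the other pathway lists, the 3 genes with most regions were named. Members and lists were chosen with earlier results of these data known. Alternatives were other reaches, −log10 q minima, joining rules, equal list lengths, another pseudocount, rank by −log10 q, a replicate block and leaving out each library.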

Additional observations from a re-analysis of the deposited data

How the results depend on the processing

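Of 197 alternative values, 183 kept their direction or stayed within 1.5 times the reported count or the spread between lists, 14 moved and none reversed. Some of these values could hardly change, such as counts of kainic acid regions when a saline library was left out. The log2 difference at Rgs4 fell from 1 to 0 at a −log10 q of at least 10 and still counted as kept. The number kept is therefore no measure of how firm the results are. The number of kainic acid regions near the RGS genes, 43, was 16 at a −log10 q of at least 10, 17 when all 3 lists were required and 23 with equal numbers of kainic acid peaks. It ran from 17 to 43 when one library was left out, at 17 when kainic acid replicate 2 was omitted, 20 when replicate 3 was and 40 when replicate 1 was; the cause was not tested. The number of those regions with a saline peak, 1, was 0 at a −log10 q of at least 10, in all 3 lists, with equal numbers of peaks and with summits within 200 bp, and ran from 0 to 1 when one library was left out. Leaving out saline replicate 2, or either of kainic acid replicates 2 and 3, gave 0. The number of genes with more peaks in every kainic acid library than in any saline library, 6, was 5 at a −log10 q of at least 5, where Rgs9 no longer stood apart, 4 at a minimum of 10, where neither Rgs2 nor Rgs9 did, and 5 with equal numbers of peaks, where Rgs2 did not. It was 8 at a reach of 50 kb, with Rgs4 and Rgs10 added, and 7 without kainic acid replicate 1, with Rgs4 added. The number of genes with a kainic acid region ran from 6 to 10, the latter at a reach of 50 kb, where Rgs14 had 7 regions in place of 1 and Rgs10 had 1 in place of 0. A wider window takes in more regions at any gene. Shares of all protein-coding genes were taken at 10 kb only, so neither count at 50 kb has a background beside it. Ranked by −log10 q in place of fold, the best region of Rgs7 moved to a mean percentile of 6.42; the cause was not tested.

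Both groups use replicate numbers 1 to 3, which the labels tie to nothing shared. Under the replicate block, the number of genes with more peaks in every kainic acid library than in the same-numbered saline library was 6, the same count as without it. The sign-flip permutation p was 0.25 for those genes, the smallest that 3 pairs allow. Correlations of same-numbered libraries' deviations in peak numbers across genes were 0.281, 0.275 and 0.0414. They cannot show whether libraries are paired. Saline replicates 1 and 3 held 7 and 2 peaks, so their deviations mirror those of saline replicate 2. Since the labels give nothing shared, the numbers were not treated as pairs. Peaks near the threshold, with 10 to 15 reads over the summit, limit what a missing call can show.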
